A study of Homo sapiens with 12 samples.

Results

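The 32 genes described here encode the transporters and enzymes that carry glucose to pyruvate and lactate, the kinases that set the rate of that route, and enzymes of the pentose phosphate pathway. They were taken by symbol from a written list, and all 32 were found among the 19225 genes of the deposited tables. The rule uses no measured value, though the list was drawn up with earlier results of these data known. RNA was sequenced in K562, a human chronic myeloid leukaemia line that grows in suspension and can take on erythroid or megakaryocyte features. Cells received a negative control siRNA (siNC, labelled wild type) or siRNA against RHOB (siRHOB, labelled RHOB knockdown), and were cultured for 3 days either in growth medium or in a medium for megakaryocyte differentiation (MK medium). The 4 groups, growth medium with siNC, growth medium with siRHOB, MK medium with siNC and MK medium with siRHOB, held 3 libraries each. The sources used here do not give what the MK medium contained. Nothing in the labels tells whether the 3 libraries of a group came from separate cultures, so p-values refer to the spread among these libraries alone, which may be technical.

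Glycolysis splits glucose into pyruvate in the cytosol and yields ATP without oxygen, and lactate dehydrogenase turns pyruvate into lactate so that the route can keep running. The pentose phosphate pathway branches off after the first phosphorylation. Its oxidative arm makes NADPH and its non-oxidative arm makes ribose phosphate for nucleotides or returns carbon to glycolysis. Dividing leukaemia cells run both routes at a high rate, and platelets, the product of megakaryocytes, take up glucose largely through the transporter encoded by SLC2A3. Several steps have isozymes from separate genes that differ in affinity or regulation.

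Library totals lay between 34412558 and 54048161 reads, of which the 32 genes together took 1.43% to 1.99%. RHOB itself, the siRNA target, was at 6.20, 4.68 and 1.42 CPM (read counts scaled to TMM-normalised library size) with siNC and 3.17, 3.30 and 0.465 CPM with siRHOB in growth medium. In MK medium it was at 12.8, 10.1 and 32.7 CPM with siNC and at 12.6, 15.5 and 22.1 CPM in the libraries labelled siRHOB. The siRHOB and siNC libraries overlapped in both media, with log2 differences of -0.83 ± 0.72 and -0.15 ± 0.69 (SE, adjusted p = 1 in both, edgeR quasi-likelihood test). Within same-numbered pairs RHOB was lower with siRHOB in 3 of 3 pairs of growth medium, and in MK medium it was lower in pairs 1 and 3 and higher in pair 2. With the replicate number as a block the log2 differences were -0.82 ± 0.83 and -0.16 ± 0.75 (adjusted p = 1 in both). Replicates 1 and 2 alone gave -0.74 ± 0.20 in growth medium (edgeR, unadjusted p = 0.00208, adjusted p = 0.452). In MK medium they gave 0.29 ± 0.17, with siRHOB the higher, and neither difference passed the threshold. All 8 erythroleukaemic markers of K562 were detected in every library, from 15.1 CPM for KLF1 to 4119.8 CPM for HBE1. Summed platelet and megakaryocyte markers rose from 14.2 to 24.6 CPM in growth medium with siNC to 876 to 1353 CPM in MK medium with siNC, nearly all of it ITGB3 and ITGA2B, while PF4 and GP9 stayed at or near 0 (at most 0.10 CPM). Summed lymphoid markers went from 6.35 to 10.2 CPM over the growth medium groups to 24.1 to 40.1 CPM in MK medium, almost all CD3D, with MS4A1 at 0 throughout. Summed fibroblast and epithelial markers went from 105 to 136 CPM to 251 to 301 CPM, with COL1A1 and COL1A2 higher and EPCAM lower. Summed monocyte and granulocyte markers were at 28.8 to 76.4 CPM in growth medium and 60.4 to 75.2 CPM in MK medium, most of it LYZ. Among them MPO went from at most 0.171 CPM to between 4.79 and 18.5 CPM and CSF1R from at most 0.0582 CPM to between 1.63 and 7.74 CPM, while CD14 stayed at or below 0.454 CPM and ELANE at or below 0.10 CPM. Of the 5 tested, 3 were called higher with siNC and 2 with siRHOB. The part of these markers in the results was not tested. Replicate 3 of every group stood apart from replicates 1 and 2. Member calls between media that changed in replicates 1 and 2 alone are given both ways.

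**Figure D1:**
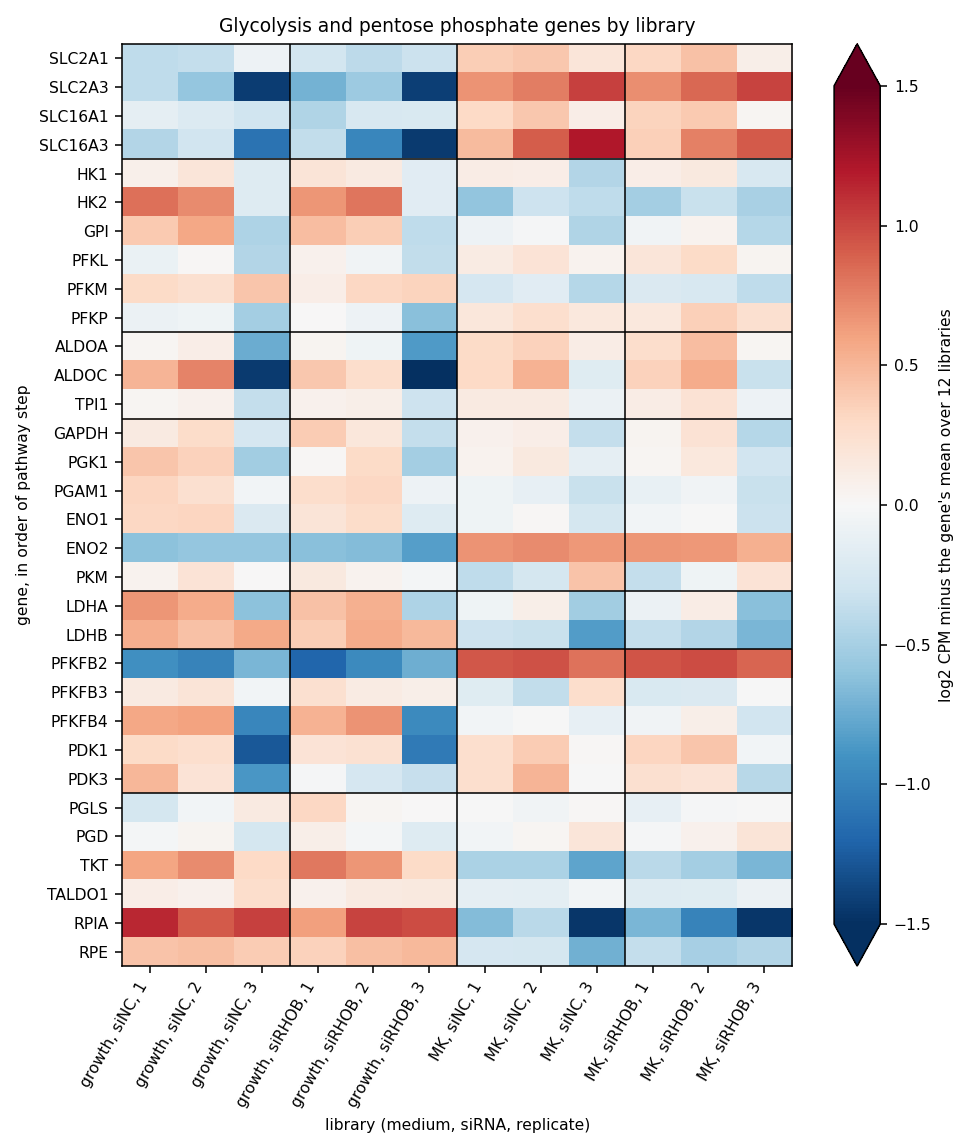
Level of each of the 32 genes in the 12 libraries, as log2 CPM minus the gene's own mean over the libraries; rows follow the pathway and columns are grouped by medium and siRNA. SLC2A3, ENO2 and PFKFB2 change from blue to red between growth medium and MK medium, RPIA and TKT change from red to blue, and ALDOC, PDK1 and PFKFB4 are darkest blue in replicate 3 of growth medium.

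Both rises and falls were seen among the 32 genes in MK medium: the transporters, PFKFB2 and ENO2 were higher, and HK2, LDHB and the non-oxidative pentose phosphate enzymes lower. Of the 32 genes, all of which passed the low-count filter, 7 were higher and 8 were lower in MK medium with siNC at a Benjamini-Hochberg adjusted p under 0.05, and 17 were not called. Over all 14026 genes tested, 30.5% were higher and 28.4% lower, or 58.9% in either direction, beside 15 of the 32. With siRHOB the count was again 7 higher, 8 lower and 17 not called, beside 31% and 29.1% of all genes (60.1% in either direction), and the 15 genes were the same with the same direction in both arms. The median log2 change of the 32 genes was -0.10 with siNC and -0.08 with siRHOB, against 0.06 and 0.05 over all genes tested. Changes of more than 2-fold were called for SLC2A3, SLC16A3, ENO2 and PFKFB2, which were higher (4 of 32, against 19% of all genes with siNC), and for TKT and RPIA, which were lower (2 of 32, against 6.26%). The libraries of both media did not overlap for 9 genes that were higher and 8 that were lower with siNC (34.3% and 31.5% of all genes), and for 7 and 9 with siRHOB (35.6% and 32.1%). The same genes passed the 2-fold limit with siRHOB, where the shares of all genes were 19.5% and 6.92%.

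**Figure D2:**
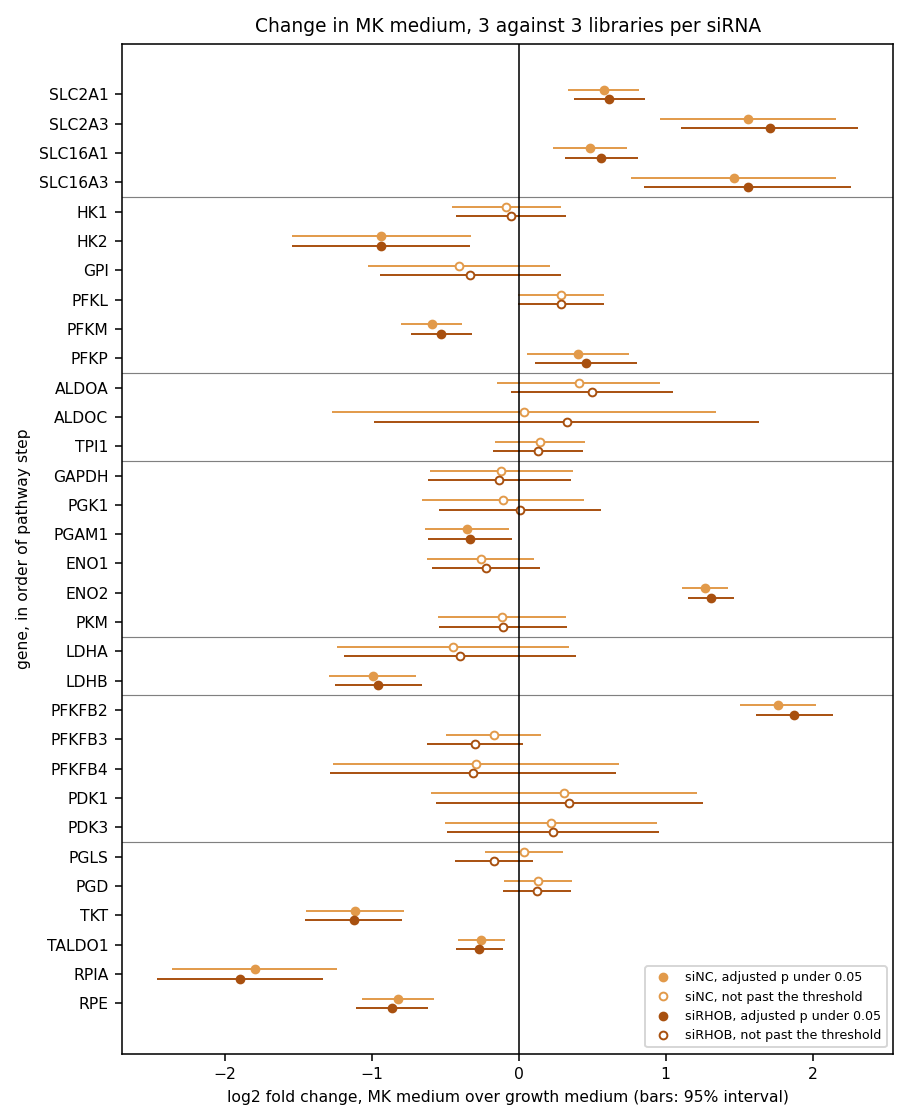
Log2 fold change of each gene in MK medium over growth medium, by siRNA; points are edgeR estimates from 3 against 3 libraries, bars are 95% intervals and filled points passed an adjusted p of 0.05. The estimates of both arms lie close together for every gene, from about -1.90 for RPIA to 1.88 for PFKFB2, and the widest bars belong to ALDOC, PFKFB4 and PDK1.

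Per length, in FPKM (reads scaled to library size and to gene length in kilobases), the genes spanned a wide range in growth medium with siNC. GAPDH was highest at 1702 ± 238 FPKM, followed by ENO1 at 1519.7 ± 240.1, LDHA at 984 ± 373, ALDOA at 922 ± 236 and LDHB at 589 ± 48.0 FPKM (SD, n = 3). GAPDH and ENO1 lay within each other's spread, as did LDHA and ALDOA. The lowest were PFKFB3 at 6.82 ± 0.301, SLC16A3 at 1.45 ± 0.348 and PDK3 at 0.478 ± 0.192 FPKM. In MK medium with siNC GAPDH was again highest at 1645 ± 290 FPKM, then ENO1 at 1332 ± 141 and ALDOA at 1286 ± 114 FPKM, and LDHA followed at 762 ± 163 FPKM.

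All 4 transporters of glucose and lactate were higher in MK medium. SLC2A3 encodes GLUT3, a high-affinity glucose transporter of neurons and platelets. With siNC, SLC2A3 stood at 329, 287 and 159 CPM in growth medium and at 685, 728 and 869.5 CPM in MK medium, and with siRHOB at 262, 294 and 161 CPM and 696, 779.6 and 866 CPM. The groups did not overlap, and the log2 fold change was 1.56 ± 0.27 (adjusted p = 0.000609) with siNC and 1.71 ± 0.27 (adjusted p = 0.000317) with siRHOB (SE, edgeR). In growth medium replicate 3 was the lowest of its group and in MK medium it was the highest, so that replicates 1 and 2 alone gave 1.19 with siNC. SLC2A1 encodes GLUT1, the basal glucose transporter of most dividing cells. SLC2A1 read 251, 255 and 309.9 CPM in growth medium and 419.9, 430.3 and 369 CPM in MK medium with siNC, against 269, 249 and 262 CPM and 406, 444 and 347 CPM with siRHOB. Its rise was smaller than that of SLC2A3, 0.58 ± 0.11 (adjusted p = 0.000977) with siNC and 0.62 ± 0.11 (adjusted p = 0.000605) with siRHOB. Per length, both transporters were about level in growth medium with siNC, at 72.8 ± 12.3 FPKM for SLC2A1 and 63.5 ± 19.6 FPKM for SLC2A3 (SD, n = 3), and at 113 ± 9.95 and 197 ± 23.3 FPKM in MK medium with siNC. SLC2A3 has a near-identical neighbour, SLC2A14, and the sources used here do not tell how reads shared by the pair were counted.

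The monocarboxylate transporters carry lactate with a proton across the plasma membrane, SLC16A1 (MCT1) in either direction and SLC16A3 (MCT4) mainly outward from cells with strong glycolysis. With siNC, SLC16A1 stood at 468, 445 and 420.4 CPM in growth medium and at 636, 682 and 551 CPM in MK medium, and with siRHOB at 375, 437 and 441 CPM and 648, 678 and 525 CPM. No library of growth medium reached those of MK medium, and the log2 fold change was 0.49 ± 0.11 (adjusted p = 0.00357) with siNC and 0.56 ± 0.11 (adjusted p = 0.00137) with siRHOB. SLC16A3 rose from a low level. SLC16A3 read 3.37, 3.75 and 2.12 CPM in growth medium and 6.35, 8.61 and 10.5 CPM in MK medium with siNC, against 3.55, 2.31 and 1.69 CPM and 5.84, 7.75 and 8.64 CPM with siRHOB. Its log2 fold change was 1.46 ± 0.32 (adjusted p = 0.00224) with siNC and 1.56 ± 0.32 (adjusted p = 0.0015) with siRHOB. Replicates 1 and 2 alone gave 1.06 with siNC and 1.21 with siRHOB. In MK medium too SLC16A3 was far below SLC16A1 per length, at 4.21 ± 1.00 against 153 ± 17.2 FPKM with siNC. Summed over the 4 transporters, FPKM went from 243 ± 10.2 to 468 ± 12.3 with siNC and from 228 ± 9.50 to 470.0 ± 22.4 with siRHOB (SD, n = 3).

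**Figure D3:**
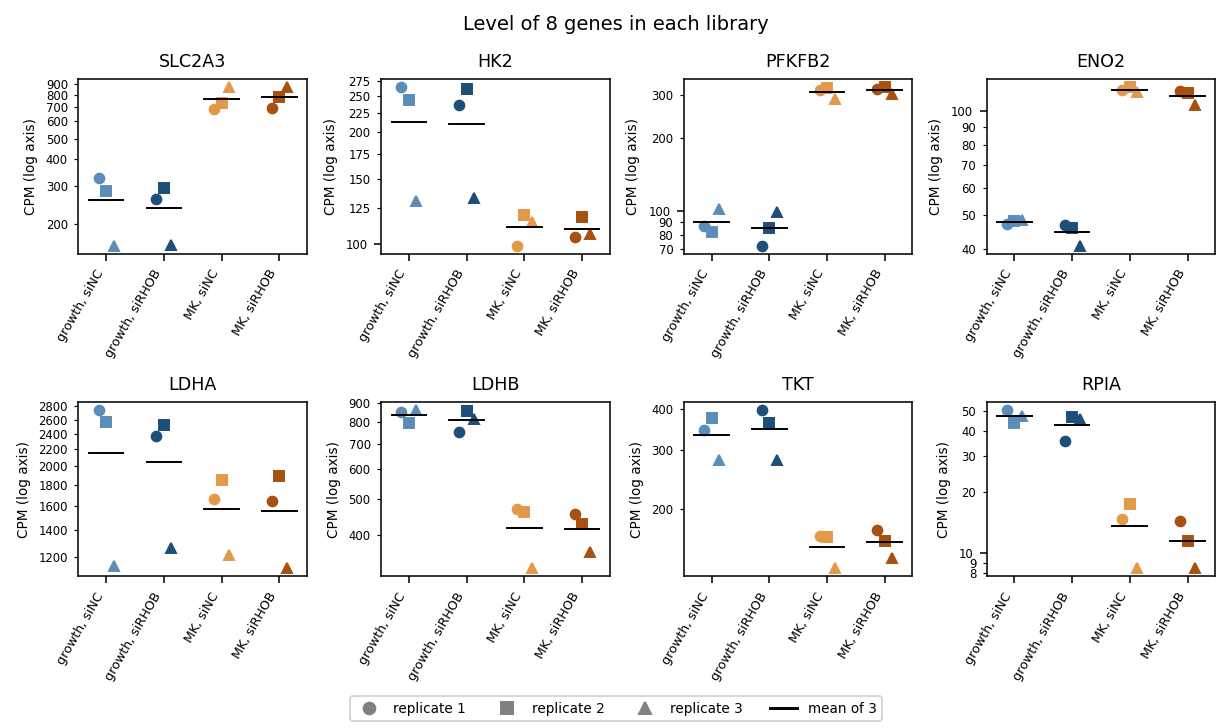
Level of 8 genes in each library, in CPM on a log axis, by medium and siRNA; symbols mark the replicate number and lines the mean of 3. SLC2A3, PFKFB2 and ENO2 lie higher and HK2, LDHB, TKT and RPIA lower in every MK medium library than in every growth medium library, while replicate 3 of LDHA in growth medium (1139.7 and 1261 CPM) lies among the MK medium values.

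At the entry step, hexokinase phosphorylates glucose, and the 2 hexokinase genes of the list diverged. HK2, the inducible isozyme bound to mitochondria in tumour cells, was lower in MK medium. With siNC, HK2 stood at 265, 244 and 130.5 CPM in growth medium and at 99.2, 120.2 and 115 CPM in MK medium, and with siRHOB at 237, 262 and 133 CPM and 105, 118 and 107 CPM. The groups did not overlap, although replicate 3 of growth medium lay only just above the MK medium libraries. The log2 fold change was -0.94 ± 0.28 (adjusted p = 0.0132) with siNC and -0.94 ± 0.28 (adjusted p = 0.0127) with siRHOB. This call was lost with siNC without growth medium siNC replicate 1 (-0.76, adjusted p = 0.0541) and with siRHOB without growth medium siRHOB replicate 2 (-0.76, adjusted p = 0.0534). Replicates 1 and 2 alone gave larger falls of HK2, -1.22 with siNC and -1.17 with siRHOB (edgeR, adjusted p = 9.16e-08 and 1.19e-07). HK1, the constitutive and more abundant isozyme, was at 261 ± 24.4 FPKM in growth medium and 258 ± 54.5 FPKM in MK medium with siNC. Its log2 difference was -0.08 ± 0.17 with siNC (95% interval -0.46 to 0.29) and -0.05 ± 0.17 with siRHOB (-0.42 to 0.32), and neither passed the test.

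GPI, which turns glucose 6-phosphate into fructose 6-phosphate, was at 766, 876 and 424 CPM in growth medium and 552, 578 and 427 CPM in MK medium with siNC. Growth medium replicate 3 lay below every MK medium library, and the log2 difference was -0.41 ± 0.28 (adjusted p = 0.231) with siNC and -0.33 ± 0.28 (adjusted p = 0.331) with siRHOB, not past the threshold. With the replicate number as a block, GPI was called lower in both arms (-0.36, adjusted p = 0.0175, and -0.30, adjusted p = 0.0396), and replicates 1 and 2 alone gave -0.55 and -0.43 (adjusted p = 5.86e-06 and 5.59e-05).

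Phosphofructokinase commits the sugar to glycolysis and is built from muscle (PFKM), liver (PFKL) and platelet (PFKP) subunits. PFKM fell. PFKM read 74.3, 72.0 and 81.0 CPM in growth medium and 51.0, 54.3 and 45.4 CPM in MK medium with siNC, against 65.2, 75.4 and 76.6 CPM and 52.4, 51.7 and 46.6 CPM with siRHOB. No libraries overlapped, and the log2 fold change was -0.59 ± 0.09 (adjusted p = 0.000275) with siNC and -0.53 ± 0.09 (adjusted p = 0.000574) with siRHOB. PFKP, named for the platelet form, moved the other way. In growth medium PFKP measured 153, 156 and 115 CPM with siNC and 164, 155 and 106 CPM with siRHOB, and in MK medium it measured 183, 195 and 182 CPM and 182, 209 and 192 CPM. Its log2 fold change was 0.40 ± 0.16 (adjusted p = 0.0462) with siNC and 0.46 ± 0.16 (adjusted p = 0.026) with siRHOB. The PFKP call with siNC was fragile: it was lost without the low-count filter (0.39, adjusted p = 0.0609) and in 10 of 12 fits that left out a library (0.27 to 0.47, adjusted p = 0.0537 to 0.168), and was kept only when growth medium siRHOB replicate 1 or 3 was left out. With siRHOB it was lost without growth medium siRHOB replicate 3 (0.28, adjusted p = 0.0772) or MK medium siRHOB replicate 2 (0.39, adjusted p = 0.0913). PFKL differed by 0.29 ± 0.13 with siNC and 0.29 ± 0.13 with siRHOB and did not pass the threshold (adjusted p = 0.0836 in siNC and 0.0837 in siRHOB). With the replicate block PFKL was called higher in both arms (0.30 and 0.29, adjusted p = 0.00552 and 0.00626), as it was in replicates 1 and 2 alone (0.19 and 0.23, adjusted p = 0.0197 and 0.00834). DESeq2 called PFKL higher with siNC (0.32, adjusted p = 0.0496) but not with siRHOB (0.32, adjusted p = 0.051).

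The kinases that set fructose 2,6-bisphosphate, the main allosteric activator of phosphofructokinase, are bifunctional enzymes that differ in their balance of kinase and phosphatase activity. PFKFB2, the heart form, gave the largest rise among the 32 genes. With siNC, PFKFB2 stood at 87.1, 82.1 and 102 CPM in growth medium and at 313, 319 and 289 CPM in MK medium, and with siRHOB at 72.1, 84.9 and 99.4 CPM and 316, 324 and 302 CPM. Every MK medium library was above every growth medium library, and the log2 fold change was 1.76 ± 0.12 (adjusted p = 7.39e-07) with siNC and 1.88 ± 0.12 (adjusted p = 4.36e-07) with siRHOB, or 3.39-fold and 3.67-fold. PFKFB3 and PFKFB4, which are inducible forms known from tumours, were not called. PFKFB3 read 31.7, 33.0 and 27.9 CPM in growth medium and 25.4, 22.3 and 34.6 CPM in MK medium with siNC, against 34.2, 31.4 and 30.7 CPM and 24.6, 24.8 and 28.8 CPM with siRHOB. Its log2 differences were -0.17 ± 0.15 and -0.30 ± 0.15 (adjusted p = 0.341 and 0.101). In growth medium PFKFB4 measured 69.4, 70.7 and 23.6 CPM with siNC and 66.8, 74.1 and 24.0 CPM with siRHOB, and in MK medium it measured 45.1, 46.2 and 42.6 CPM and 44.9, 49.7 and 38.3 CPM. In growth medium replicate 3 of PFKFB4 was at 23.6 and 24.0 CPM, well below its fellows, and the log2 differences were -0.29 ± 0.44 and -0.31 ± 0.44 with intervals from -1.26 to 0.68 and from -1.28 to 0.66. Replicates 1 and 2 alone called both genes lower in both arms, PFKFB3 by -0.45 and -0.42 and PFKFB4 by -0.63 and -0.59 (largest adjusted p = 0.000953).

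The pyruvate dehydrogenase kinases PDK1 and PDK3 turn off pyruvate dehydrogenase, which makes acetyl-CoA from pyruvate in mitochondria. PDK1 read 96.1, 93.9 and 32.6 CPM in growth medium and 93.6, 102 and 79.6 CPM in MK medium with siNC, against 90.6, 92.1 and 37.7 CPM and 98.1, 105 and 76.6 CPM with siRHOB. Here too growth medium replicate 3 was the low library, and the difference between media was 0.31 ± 0.41 and 0.34 ± 0.41 on the log2 scale (adjusted p = 0.538 and 0.489). PDK3 was low throughout, between 1.90 and 4.97 CPM, and was not called. Summed over the 5 regulatory kinases, FPKM went from 53.9 ± 11.6 to 98.6 ± 5.29 with siNC, a rise made up almost wholly of PFKFB2, which went from 16.8 ± 2.72 to 59.1 ± 3.43 FPKM.

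The 3 genes that cleave fructose bisphosphate and interconvert the trioses were not called. ALDOA, the ubiquitous aldolase, was at 1918, 2015 and 1119 CPM in growth medium and 2292, 2379.8 and 2027 CPM in MK medium with siNC, which did not overlap. Its log2 difference was 0.41 ± 0.25 (adjusted p = 0.183) with siNC and 0.50 ± 0.25 (adjusted p = 0.107) with siRHOB. With the replicate block it was called higher in both arms (0.45 and 0.54, adjusted p = 0.0123 and 0.00502), as it was in replicates 1 and 2 alone (0.24 and 0.36, adjusted p = 0.00549 and 0.000246). ALDOC, the brain aldolase, had the largest SE of all 32 genes. ALDOC read 176, 206 and 45.7 CPM in growth medium and 152, 177 and 109 CPM in MK medium with siNC, against 163, 148 and 37.8 CPM and 157, 181 and 98.1 CPM with siRHOB. Growth medium replicate 3 was the lowest library with either siRNA, and the 95% interval of the difference ran from -1.27 to 1.34 with siNC. TPI1, triose phosphate isomerase, differed by 0.14 ± 0.14 and 0.13 ± 0.14 and was called higher only with the replicate block and siNC (0.15, adjusted p = 0.0415).

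From triose phosphate to pyruvate, ENO2 rose, PGAM1 fell and 4 genes were not called. ENO2, the neuron-type enolase, was higher in MK medium with either siRNA. With siNC, ENO2 stood at 47.2, 48.2 and 48.3 CPM in growth medium and at 115, 118 and 114 CPM in MK medium, and with siRHOB at 46.8, 46.1 and 40.9 CPM and 114, 113 and 104 CPM. Its log2 fold change was 1.27 ± 0.07 (adjusted p = 2.57e-07) with siNC and 1.31 ± 0.07 (adjusted p = 1.8e-07) with siRHOB, with the smallest SE of the 32 genes. ENO1, the ubiquitous enolase and per length second only to GAPDH among these genes, was at 4111, 4132 and 2856 CPM in growth medium and 3173, 3352 and 2752 CPM in MK medium with siNC. ENO1 differed by -0.26 ± 0.17 (adjusted p = 0.201) with siNC and -0.22 ± 0.17 (adjusted p = 0.266) with siRHOB and was called lower with the replicate block (-0.24 and -0.21, adjusted p = 0.00635 and 0.0122) and in replicates 1 and 2 alone (-0.35 and -0.27, adjusted p = 5.02e-05 and 0.000394). ENO2 still made the smaller part of enolase RNA in MK medium, at 48.6 ± 1.15 FPKM beside 1332 ± 141 FPKM for ENO1 with siNC.

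PGAM1, phosphoglycerate mutase, was at 363, 345 and 283 CPM in growth medium and 278, 267 and 230.4 CPM in MK medium with siNC. The groups did not overlap with siNC but did with siRHOB, and the log2 fold change was -0.35 ± 0.13 (adjusted p = 0.0357) with siNC and -0.33 ± 0.13 (adjusted p = 0.0457) with siRHOB. The call depended on the setting: with RLE scaling it gave -0.32 (adjusted p = 0.0539) and -0.30 (adjusted p = 0.0678). With siNC it was also lost by limma on log2(FPKM + 1) (-0.29, adjusted p = 0.0526, or 0.0646 without the filter) and without growth medium siNC replicate 1 or 2 or MK medium siNC replicate 2 or 3 (-0.29 to -0.39, adjusted p = 0.0573 to 0.123). With siRHOB it was lost without the filter, with DESeq2 and with limma (adjusted p = 0.0505 to 0.0892), and without growth medium siNC replicate 2, growth medium siRHOB replicate 1 or 2, MK medium siNC replicate 1 or 2 or MK medium siRHOB replicate 1 or 3 (adjusted p = 0.0552 to 0.158). GAPDH, often used as a reference gene, differed by -0.12 ± 0.22 and -0.13 ± 0.22 (95% intervals -0.61 to 0.37 and -0.62 to 0.36), and PGK1, which makes the first ATP, by -0.11 ± 0.25 and 0.01 ± 0.25. In replicates 1 and 2 alone PGK1 was called lower with siNC (-0.29, adjusted p = 0.00747) but not with siRHOB (-0.07, adjusted p = 0.454). Neither gene was called over all libraries, and intervals of this width do not show that their levels were equal.

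PKM, pyruvate kinase, makes the last ATP and pyruvate; the tables give a single value per gene, so the splice forms PKM1 and PKM2 cannot be told apart. In growth medium PKM measured 802, 894 and 781 CPM with siNC and 859.6, 803 and 758 CPM with siRHOB, and in MK medium it measured 594, 645 and 1047 CPM and 608, 745 and 896 CPM. The log2 difference was -0.12 ± 0.20 and -0.11 ± 0.20 (adjusted p = 0.636 and 0.66). In MK medium replicate 3 was the highest library of PKM, and in replicates 1 and 2 alone PKM was called lower in both arms (-0.46 and -0.31, adjusted p = 0.000331 and 0.00576). GAPDH, ENO1, PGK1, PGAM1, TPI1, PKM, LDHA and LDHB have processed pseudogenes, and the sources used here do not tell how reads shared with them were counted.

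Lactate dehydrogenase is a tetramer of the subunits LDHA, which favours lactate, and LDHB, which favours pyruvate. LDHB fell by about a factor of 2. With siNC, LDHB stood at 852, 792 and 862 CPM in growth medium and at 469, 462 and 327 CPM in MK medium, and with siRHOB at 753, 854 and 814 CPM and 455, 430.1 and 362 CPM. The log2 fold change was -0.99 ± 0.13 (adjusted p = 9.18e-05) with siNC and -0.96 ± 0.13 (adjusted p = 0.00011) with siRHOB, with no overlap between media. LDHA read 2748, 2564 and 1139.7 CPM in growth medium and 1665, 1851 and 1213 CPM in MK medium with siNC, against 2366, 2526 and 1261 CPM and 1642, 1889 and 1126 CPM with siRHOB. LDHA overlapped between media: growth medium replicate 3 lay below all 3 MK medium libraries with siNC and below 2 of 3 with siRHOB. Its log2 difference was -0.45 ± 0.36 (adjusted p = 0.302) with siNC and -0.40 ± 0.36 (adjusted p = 0.351) with siRHOB. The replicate block called LDHA lower in both arms (-0.37 and -0.37, adjusted p = 0.025 and 0.0259), and replicates 1 and 2 alone gave -0.61 and -0.48 (adjusted p = 7.51e-06 and 6.1e-05). Together both subunits went from 1572 ± 333 to 1069.5 ± 221 FPKM with siNC (SD, n = 3).

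In the pentose phosphate pathway 4 of 6 genes fell with each siRNA, all of them in the non-oxidative arm, and the 2 oxidative genes of the list were not called. RPIA interconverts ribulose and ribose 5-phosphate, the precursor of nucleotides. With siNC, RPIA stood at 50.8, 43.8 and 47.2 CPM in growth medium and at 14.8, 17.5 and 8.47 CPM in MK medium, and with siRHOB at 35.6, 46.7 and 45.8 CPM and 14.4, 11.5 and 8.42 CPM. It had the largest fall of the 32 genes, -1.80 ± 0.25 (adjusted p = 0.000132) with siNC and -1.90 ± 0.26 (adjusted p = 8.52e-05) with siRHOB, which left 0.287 and 0.268 of the growth medium level. RPE, the epimerase that makes xylulose 5-phosphate, moved the same way. RPE read 76.2, 77.5 and 73.9 CPM in growth medium and 47.5, 47.1 and 34.3 CPM in MK medium with siNC, against 71.8, 77.4 and 79.7 CPM and 44.2, 40.1 and 41.7 CPM with siRHOB. Its log2 fold change was -0.82 ± 0.11 (adjusted p = 0.0001) with siNC and -0.86 ± 0.11 (adjusted p = 6.37e-05) with siRHOB. TKT, transketolase, moves carbon pairs between sugars and links the pathway to glycolysis. In growth medium TKT measured 345, 375 and 281 CPM with siNC and 397, 362 and 280.0 CPM with siRHOB, and in MK medium it measured 165, 164 and 133 CPM and 173, 161 and 143 CPM. It fell by 1.12 ± 0.15 with siNC and 1.12 ± 0.15 with siRHOB on the log2 scale (adjusted p = 9.2e-05 and 7.82e-05). For RPIA, RPE and TKT every library of MK medium lay below every library of growth medium.

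TALDO1, transaldolase, fell less. With siNC, TALDO1 stood at 357, 349 and 399.9 CPM in growth medium and at 303, 301 and 323 CPM in MK medium, and with siRHOB at 347, 364 and 368 CPM and 289.7, 294 and 313 CPM. Its log2 fold change was -0.25 ± 0.07 (adjusted p = 0.0102) with siNC and -0.27 ± 0.07 (adjusted p = 0.00742) with siRHOB, and limma on FPKM lost the call with a pseudocount of 1, with and without the filter, and with 0.1, filtered (-0.19 to -0.20, adjusted p = 0.0702 to 0.0989). Of the oxidative arm, PGLS, the lactonase, was at 15.8 to 23.4 CPM in growth medium and differed by 0.03 ± 0.12 and -0.17 ± 0.12. PGD, which makes NADPH and ribulose 5-phosphate, was far more abundant. PGD read 501, 526 and 425 CPM in growth medium and 495, 519.8 and 577 CPM in MK medium with siNC, against 541, 502 and 446 CPM and 505, 533 and 582 CPM with siRHOB. It differed by 0.13 ± 0.11 and 0.12 ± 0.11 (95% intervals -0.10 to 0.36 and -0.11 to 0.35), and replicate 3 was its lowest library in growth medium and its highest in MK medium. Summed over the 6 genes, FPKM went from 691 ± 16.3 to 589 ± 11.5 with siNC and from 694 ± 10.5 to 586 ± 18.0 with siRHOB. In these bulk samples fewer cells of a type and less RNA per cell cannot be told apart.

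The balance between isozymes was measured as the ratio of their FPKM within a library, which library scaling does not touch. For 10 pairs the medium labels were permuted exactly within each siRNA arm, where the smallest two-sided p is 0.005, and p-values were adjusted over the 10 pairs. Of these, 7 passed at an adjusted p of 0.0143 (raw exact p of 0.005 or 0.01). Within a single arm, 3 against 3 libraries cannot go below 0.1. The ratio of ENO1 to ENO2 moved most. It was 89.1, 87.7 and 60.4 in growth medium with siNC and 28.2, 29.1 and 24.8 in MK medium with siNC, and its mean log2 change over both arms was -1.52, lower in 6 of 6 same-numbered pairs. ENO2 was thus a larger share of enolase RNA in every MK medium library. The ratio of PFKM to PFKP fell from 0.437 ± 0.107 to 0.213 ± 0.0135 with siNC (mean ± SD, n = 3) and by 1.01 on the log2 scale over both arms, in 6 of 6 pairs. PFKL to PFKP fell less, by 0.15, also in 6 of 6 pairs, and its call was lost without MK medium siRHOB replicate 3 (-0.12, adjusted p = 0.05, exact permutation). In replicates 1 and 2 alone the change was -0.74 for PFKM to PFKP and -0.07 for PFKL to PFKP.

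Hexokinase RNA leaned further to HK1 in MK medium, with HK1 to HK2 ratios of 7.39, 8.69 and 12.5 in growth medium and 20.4, 16.6 and 11.9 in MK medium with siNC. The mean log2 change over both arms was 0.80, higher in 5 of 6 pairs. The exception was pair 3 with siNC, where the growth medium library already had a high ratio. Replicates 1 and 2 alone gave a change of 1.16 for HK1 to HK2. The ratio of the glucose transporters was lower in MK medium. SLC2A1 to SLC2A3 was 0.819, 0.955 and 2.09 in growth medium with siNC and 0.658, 0.634 and 0.455 in MK medium with siNC, and its mean log2 change was -1.09, lower in 6 of 6 pairs. SLC16A1 to SLC16A3 changed by -1.02, lower in 5 of 6 pairs. Replicates 1 and 2 alone gave smaller changes for both transporter ratios, -0.57 and -0.53.

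For lactate dehydrogenase, the ratio of LDHA to LDHB was 2.12, 2.13 and 0.870 in growth medium and 2.33, 2.64 and 2.44 in MK medium with siNC. With siRHOB it was 2.07, 1.94 and 1.02 in growth medium and 2.37, 2.89 and 2.04 in MK medium. The ratio was thus higher in MK medium in 6 of 6 pairs, by a mean of 0.62 on the log2 scale, but replicate 3 of growth medium carried much of it. Replicates 1 and 2 alone gave 0.30, and leaving out growth medium siNC replicate 3 gave 0.40. The call was lost without MK medium siNC replicate 1, 2 or 3 or MK medium siRHOB replicate 1 or 2 (0.55 to 0.64, adjusted p = 0.05 to 0.0929, exact permutation). ALDOA to ALDOC (0.09, adjusted p = 0.775), PDK1 to PDK3 (0.19, adjusted p = 0.525) and PFKFB3 to PFKFB4 (-0.10, adjusted p = 0.775) did not pass the exact permutation test. With the pairs as blocks, exact sign flips of 6 pairs cannot go below 0.03125. The smallest adjusted p by sign flips was 0.0625, so no ratio passed. Sign flips and permutation both treat the siNC and siRHOB libraries of a number as independent. If they are not, the p-values are too small and the counts over 6 pairs hold fewer independent pairs.

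**Figure D4:**
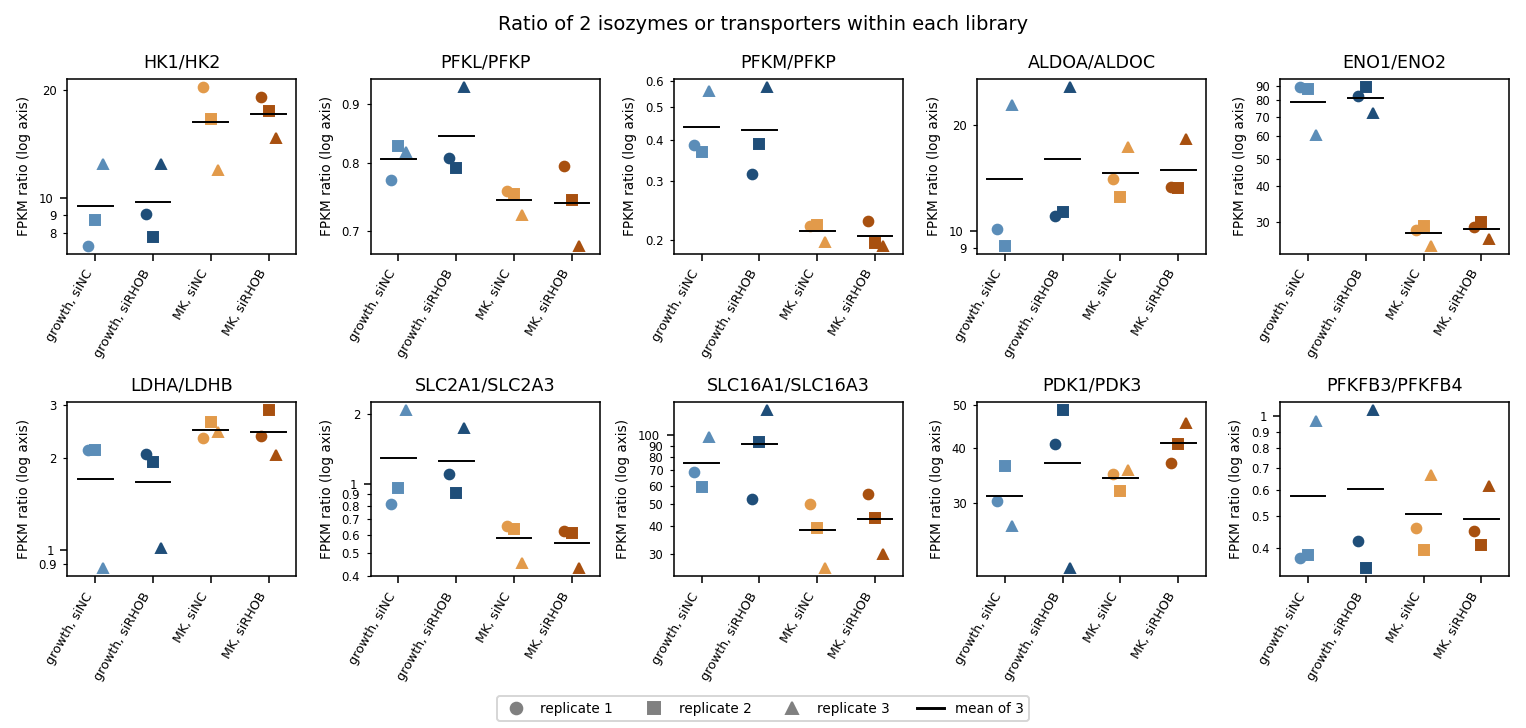
Ratio of the FPKM of 2 isozymes or transporters in each library, on a log axis, by medium and siRNA; symbols mark the replicate number and lines the mean of 3. ENO1/ENO2, PFKM/PFKP and SLC2A1/SLC2A3 are lower in every MK medium library than in every growth medium library of the same siRNA, and growth medium replicate 3 stands off in LDHA/LDHB (0.870 and 1.02), ALDOA/ALDOC and PFKFB3/PFKFB4.

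None of the 32 genes passed the test between siRHOB and siNC. edgeR called 0 of 14026 genes (0%) in either medium, DESeq2 also called 0, and at an unadjusted p under 0.05 edgeR had 156 genes for growth medium and 50 for MK medium, 0 of them among the 32. The log2 differences of the 32 genes ran from -0.30 for ALDOC (95% interval -1.60 to 1.01) to 0.17 for PGLS (-0.10 to 0.43) in growth medium. In MK medium they ran from -0.25 for RPIA (-0.80 to 0.31) to 0.07 for HK1 (-0.31 to 0.44). ENO2 in growth medium was the single member whose siRHOB libraries (46.8, 46.1 and 40.9 CPM) all lay below the siNC libraries (47.2, 48.2 and 48.3 CPM), which held for 2.13% of all genes. In growth medium 0 members had all siRHOB libraries above (1.72% of all genes), and in MK medium 0 lay wholly above or below (2.1% and 2.12%). The difference of the siRNA effect between media lay between -0.20 for PGLS and 0.29 for ALDOC, and none passed (0 of 14026 genes, 106 at an unadjusted p under 0.05). In replicates 1 and 2 alone, edgeR had 812 of 13895 genes at an unadjusted p under 0.05 in growth medium. Of the 32, 5 were among them: ALDOC (-0.30), PGK1 (-0.22), PDK3 (-0.48) and SLC16A1 (-0.17) lower and PGLS (0.32) higher with siRHOB. In MK medium 338 genes and 1 member, RPE (-0.17), reached it, and 577 genes and 2 members for the difference between media. None of these members passed after adjustment. RHOB itself was not called between these libraries, so the comparison is of libraries as labelled.

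Glycolytic genes were low in replicate 3 of growth medium with either siRNA. In growth medium 22 of the 32 genes were lower in replicate 3 than in replicates 1 and 2 with both siRNAs, against 27.8% of all genes tested, and 3 were higher, against 27.8%. The median log2 difference was -0.39 for the 32 genes and 0.00 for all genes. Relative to replicates 1 and 2, growth medium replicate 3 held 24.2% of ALDOC, 33.9% of PFKFB4, 37.6% of PDK1, 47.1% of LDHA, 52.4% of HK2, 54.5% of GPI, 56.4% of ALDOA and 58.2% of PGK1. LDHB (103%), RPE (101%) and SLC16A1 (100.1%) were near the level of the other replicates. In MK medium 22 genes were again lower in replicate 3 (34.2% of all genes) and 7 were higher (34.4%), with a median of -0.24, but the genes differed in order. RPIA held 58.6% and ALDOC 62.1% of the level of replicates 1 and 2, while PKM stood at 150.1%, SLC16A3 at 135%, PFKFB3 at 130.1% and SLC2A3 at 120.3%. What made replicate 3 differ was not tested.

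The change between media depended on the pair for part of the genes. Of the 32 genes, 19 moved in the same direction in 6 of 6 same-numbered pairs, 10 higher and 9 lower in MK medium, where 36.7% of all genes were higher and 33.6% lower in 6 of 6. PKM and PFKFB4 were lower in MK medium in the 4 pairs of replicates 1 and 2 and higher in both pairs of replicate 3, as were 2.28% of all genes. The median change of the 32 genes was -0.22 and -0.17 (siNC and siRHOB) in pair 1, -0.18 and -0.02 in pair 2 and 0.29 and 0.11 in pair 3. With replicates 1 and 2 alone 24 of the 32 genes were called with siNC, 9 higher and 15 lower, where 68.9% of all genes were called. With siRHOB 23 were called, 9 higher and 14 lower, beside 70.6% of all genes.

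**Figure D5:**
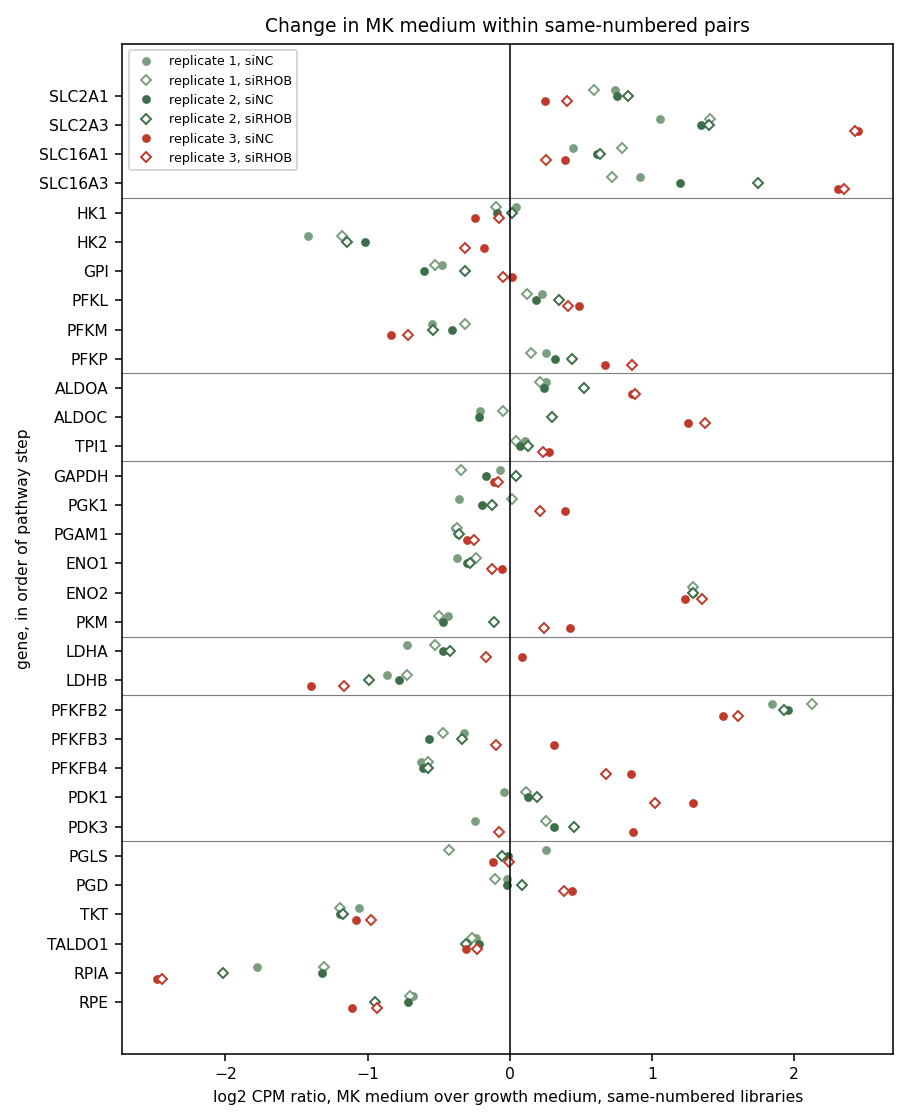
Log2 ratio of CPM in MK medium over growth medium for each same-numbered pair of libraries, by gene; filled circles are siNC, open diamonds siRHOB, and red marks replicate 3. The transporters, PFKFB2 and ENO2 lie right of 0 and LDHB, TKT, RPIA and RPE left of 0 in 6 of 6 pairs, while replicate 3 lies across 0 from the others for PKM and PFKFB4.

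Many glycolytic genes are textbook targets of hypoxia-inducible factors, whose known core sites include the letters ACGTG and GCGTG. The promoters were read for these motifs. Whether these factors had a part in the low values of replicate 3 was not tested. RefSeq promoters of build GRCh38.p14 matched 29 of the 32 genes, by symbol. Members and tested genes were each represented by the first promoter listed for the symbol, while the 35116 promoters hold every entry. Whether that start is the one used in K562 was not tested. In the 250 bases before the start, ACGTG occurred on either strand in 10 of 29 (34.5%), against 18.5% of all 35116 promoters and 22.4% of the 10862 promoters of tested genes. GCGTG occurred in 10 of 29 (34.5%), against 32.2% and 44.2%, and the palindrome CACGTG, which contains ACGTG on both strands, in 3 of 29 (10.3%), against 6.34% and 8.49%. Of the 10 genes with ACGTG, 9 lay below in growth medium replicate 3 with both siRNAs, as did 12 of the 19 matched genes without it, PFKFB4 and PDK1 among them. Over all genes tested, whatever their promoter, 27.8% lay below in this way. The share among all tested genes with ACGTG was not counted, so a link of motif and level was not tested. A match is a run of letters and was not tested as a binding site. The 5 stretches below, chosen after the values were seen, show 4 genes that were low in growth medium replicate 3 and ENO2, which was not. Capitals mark ACGTG or its reverse complement CACGT, and each stretch is written 5′ to 3′ on the strand of the gene.
LDHA, chr11:18394460-18394524 (+): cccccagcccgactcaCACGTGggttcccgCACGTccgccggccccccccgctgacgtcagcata
ALDOC, chr17:28576896-28576953 (-): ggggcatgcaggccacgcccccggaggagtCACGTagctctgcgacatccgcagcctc
PGK1, chrX:78104035-78104099 (+): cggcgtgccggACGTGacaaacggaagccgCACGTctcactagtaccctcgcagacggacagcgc
HK2, chr2:74834049-74834113 (+): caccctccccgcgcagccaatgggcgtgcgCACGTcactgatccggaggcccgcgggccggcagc
ENO2, chr12:6914432-6914496 (+): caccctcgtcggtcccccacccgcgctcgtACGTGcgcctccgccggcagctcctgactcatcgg
LDHA held 5 matches in its 250 bases, ALDOC 3, PGK1 and HK2 2 each and ENO2 1. A palindrome CACGTG counts as 2 matches here, and LDHA held 2 such palindromes and ALDOC 1. The match of ALDOC lay nearest its start, 28 bases before it.

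Neighbouring pathways were read from lists of genes outside the 32. Of 35 tested genes of pyruvate entry and the citric acid cycle, 1 was higher and 12 were lower in MK medium with siNC (median log2 change -0.17), and 2 and 12 with siRHOB. Over all genes tested 30.5% were higher and 28.4% lower with siNC, and 31% and 29.1% with siRHOB. ACLY, which makes acetyl-CoA from citrate, fell by 1.13 ± 0.15 from 490.1 ± 91.0 to 224 ± 10.7 CPM, and PC, pyruvate carboxylase, fell by 1.40 ± 0.22 (adjusted p = 8.56e-05 and 0.000264, siNC). SLC25A1, the citrate carrier, fell by 0.80 ± 0.11 and GOT2, mitochondrial aspartate aminotransferase, by 0.67 ± 0.10. The replicate block called 25 of these 35 genes with siNC and 24 with siRHOB, and replicates 1 and 2 alone 22 and 27, where 66.5% and 67.7% of all genes were called with the block and 68.9% and 70.6% in replicates 1 and 2. With siRHOB, leaving out MK medium siNC replicate 3 gave 22 calls.

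Of 25 tested genes of serine synthesis, one-carbon metabolism and the hexosamine branch, 7 were higher and 13 lower in both arms (median -0.50 with siNC), where 30.5% and 28.4% of all genes were higher and lower. PSAT1, of serine synthesis, fell from 94.4 ± 4.45 to 16.8 ± 3.13 CPM (log2 -2.49 ± 0.19, adjusted p = 1.86e-06, siNC). MTHFD1L (-1.87 ± 0.11), MTHFD1 (-1.21 ± 0.12) and MTHFD2 (-1.07 ± 0.09), folate enzymes of one-carbon metabolism, fell as well. Of 18 glycogen genes 5 rose and 5 fell with siNC (median 0.03), and 6 and 5 with siRHOB. GBE1, the branching enzyme, rose by 1.54 ± 0.14 and PYGB, brain glycogen phosphorylase, by 1.27 ± 0.12. The glycogenins GYG1 and GYG2, which prime the glycogen chain, changed by -1.02 ± 0.11 and -2.03 ± 0.33 and were both called lower.

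Of 40 other isozymes and side branch genes 15 rose and 11 fell with siNC (median 0.43), and 16 and 11 with siRHOB. Shares of all genes, beside this list and the next, were 30.5% higher and 28.4% lower with siNC, and 31% and 29.1% with siRHOB. GPD2, the mitochondrial glycerol phosphate dehydrogenase, rose by 1.02 ± 0.07 and PGM2, a phosphopentomutase, by 1.10 ± 0.08, while PRPS2, which makes phosphoribosyl pyrophosphate from ribose 5-phosphate, fell by 0.92 ± 0.10 and PGAM5, a mitochondrial phosphatase named for its likeness to phosphoglycerate mutase, by 1.26 ± 0.10. Of 32 genes of the HIF and glucose-responsive list 15 rose and 6 fell with siNC (median 0.55), and 16 and 6 with siRHOB. ARRDC4, an arrestin-like protein induced by glucose, rose from 33.5 ± 4.65 to 192 ± 23.5 CPM (log2 2.52 ± 0.18, adjusted p = 1.06e-06, siNC), EPAS1, which encodes a HIF alpha subunit, by 2.72 ± 0.28 and NDRG1 by 5.51 ± 0.60, whereas STC2, a secreted glycoprotein, fell by 2.57 ± 0.20. In growth medium replicate 3 this list also lay low, with 19 of 32 genes below replicates 1 and 2 with both siRNAs, 6 above and a median of -0.35. In MK medium 12 lay below and 11 above (median 0.05). The list of pyruvate entry and the citric acid cycle had 21 of 35 genes below and 4 above in growth medium (median -0.17) and 31 below and 4 above in MK medium (median -0.31). The other isozymes had 8 of 40 below and 18 above in growth medium (median 0.18) and 10 and 18 in MK medium. In growth medium the glycogen list had 4 of 18 below and 7 above, and the serine and hexosamine list 7 of 25 and 9. Over all genes tested 27.8% lay below and 27.8% above in growth medium, and 34.2% and 34.4% in MK medium.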

How the data were processed

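RNA of 12 K562 libraries was measured by sequencing. Per the labels' protocols, mRNA purified with polyT was fragmented, made into cDNA and amplified by PCR. The authors deposited whole-number read counts and FPKM values per gene symbol, with column names that identify each sample. GRCh37.p13 is the build in the submitters' processing notes, which list edgeR, featureCounts 2.0.2 and HISAT2 2.2.1 without their roles; the sources used here give no settings for strand or for reads that match several genes. The deposited FPKM equalled counts over gene length and column total for 17397 of 17397 genes with a read, to a relative tolerance of 1e-09. Coordinates of that build were not used; promoter stretches are RefSeq's, GRCh38.p14.

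The test was edgeR 4.0.16 (R 4.3.3), the two-sided quasi-likelihood F test with robust dispersion, TMM scaling and filterByExpr, on all 12 libraries in a fit of 4 group means. The filter kept 14026 of 19225 genes, and p-values were Benjamini-Hochberg adjusted over all of them with a threshold of 0.05. SE was computed from the log2 fold change and the F statistic, its absolute value over the root of F. Scripts were tested on simulated data. Alternatives were RLE scaling, no filter, DESeq2 1.42.0, limma 3.58.1 on log2(FPKM + 1) and log2(FPKM + 0.1), a replicate block, replicates 1 and 2 alone, and leaving out each library; where this left 2 libraries in a group, they were assumed to vary like the others. Isozyme ratios were tested by exact permutation. Replicates within groups differed beyond sampling noise, and none was treated as a copy.

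Replicate numbers are shared between groups. Deviations from the group mean correlated between same-numbered libraries at 0.151 to 0.601 (replicate 1), 0.190 to 0.476 (replicate 2) and 0.340 to 0.834 (replicate 3). Differently numbered libraries were not compared in this way. Deviations within a group offset one another, so a shared departure of replicate 3 raises the values of replicates 1 and 2 too. These correlations thus cannot decide whether the numbers mark pairs, and taking them as pairs is an assumption. Blocked values stand beside the results whose call they change.

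Genes named are the 32 members, RHOB and, of each neighbouring list, up to 4 with the smallest adjusted p with siNC and at least 5 CPM. Members, lists and this rule were chosen with earlier results of these data known.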

Additional observations from a re-analysis of the deposited data

How the results depend on the processing

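With replicates 1 and 2 alone, 24 of the 32 genes were called with siNC and 23 with siRHOB, 15 and 14 of them lower, against 15 called and 8 lower in each arm with all replicates; leaving out single libraries gave 12 to 16 and 13 to 16 called. The same replicates called 1 gene between siRHOB and siNC in growth medium, where all replicates called 0. For pyruvate entry and the citric acid cycle, 13 and 14 of 35 genes were called (siNC and siRHOB), where 58.9% and 60.1% of all genes were called. The replicate block called 25 and 24, replicates 1 and 2 alone 22 and 27, and leaving out single libraries 10 to 17 and 12 to 22. Beside the results printed in the report (GPI, PFKL, ALDOA, TPI1, ENO1 and LDHA), the replicate block changed no other call of a member. Of the isozyme ratios, 7 passed, and 6 to 7 passed with a library left out. With the block 0 passed, as did 0 with replicates 1 and 2 alone, where none could pass.

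Genes that were not called changed sign in some settings, and the cause was not tested. Replicates 1 and 2 alone gave, with siNC, -0.22 for ALDOC and -0.028 for PGD, and with siRHOB -0.072 for PGK1 and -0.019 for PGD; they gave -0.10 for the ratio of PDK1 to PDK3 and 0.17 for PFKFB3 to PFKFB4. limma on FPKM gave 0.0055 (pseudocount 1, with or without the filter) and 0.0057 (pseudocount 0.1) for PGK1 with siNC, and 0.011 for HK1 with siRHOB under all 3. Leaving out a library gave ranges across 0, with siNC, of -0.19 to 0.064 for HK1, -0.39 to 0.39 for ALDOC, -0.26 to 0.0036 for GAPDH, -0.36 to 0.045 for PGK1, -0.43 to 0.028 for PKM, -0.053 to 0.53 for PDK1, -0.091 to 0.50 for PDK3 and -0.070 to 0.13 for PGLS. With siRHOB they were -0.16 to 0.061 for HK1, -0.098 to 0.64 for ALDOC, -0.32 to 0.032 for GAPDH, -0.19 to 0.20 for PGK1 and -0.26 to 0.020 for PKM. For ratios they were -0.037 to 0.29 for ALDOA to ALDOC and -0.26 to 0.14 for PFKFB3 to PFKFB4. The remaining calls that were lost stand beside PFKP, PGAM1, HK2, TALDO1 and the ratios in the report. Over the 32 genes, the 10 ratios and all settings, 61 values lost the call, 42 gained one and 36 changed sign. Calls gained with limma or with a library left out are not named by gene. With 3 libraries a group and intervals as wide as -1.27 to 1.34 (ALDOC), small changes of the uncalled genes were not detectable.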
